A study of Mus musculus with 2 samples.

Results

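MHC class II high microglia are the cells of this single-cell series that carried clear counts of the class II antigen presentation genes. A cell was a member when its raw counts of Cd74, H2-Aa, H2-Ab1 and H2-Eb1 summed to at least 10. Members also had to hold fewer than 5 counts of 5 genes of border-associated macrophages (BAM; Mrc1, Pf4, Ms4a7, Cd163 and Cbr2) and fewer than 100 counts of Ttr, a choroid plexus gene. This rule found 1088 members among 42766 cells (2.54%), 531 of 18374 in the VEH library and 557 of 24392 in the LEM library. Of the cells that passed the class II minimum, the BAM limit left out 28 VEH and 52 LEM cells, and the Ttr limit left out 1 and 2. Members were described as those with high DAM genes (disease-associated microglia), whose counts of Cst7, Lpl and Spp1 summed to at least 10, and those with low DAM genes, whose counts summed to less. There were 526 members with high DAM genes (254 VEH, 272 LEM) and 562 with low DAM genes (277 VEH, 285 LEM). The remaining cells under the BAM and Ttr limits are called other microglia here, 450 with high and 40924 with low DAM genes.

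All mice carried the APPswe/PS1δE9 transgenes (PSAPP), which produce amyloid plaques, and no mice without them entered either library. From 9 months of age they were gavaged daily for 30 days with vehicle (VEH) or with 30 mg/kg/day of lemborexant (LEM), an antagonist of both orexin receptors. Live CD45lo CD11b+ DAPI- cells were sorted from cortex and hippocampus at 10 months, and each treatment gave 1 library, a pool of 5 male and female mice. With 1 library per treatment no difference between LEM and VEH could be tested. Every interval below is a 95% interval that covers counting error only, not the spread between mice, and no p-value is given. Intervals of transcript levels treat the summed counts as independent, so they leave out the spread between cells as well.

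MHC class II molecules are pairs of an alpha and a beta chain that present peptides from the endosomal pathway to CD4+ T cells. The invariant chain Cd74 escorts new pairs to the endosome, H2-DM (H2-DMa with H2-DMb1 or H2-DMb2) loads the peptide, and H2-O (H2-Oa with H2-Ob) restrains H2-DM. Transcription of these genes depends on Ciita, a coactivator recruited by factors on the X and Y boxes of their promoters. Resting microglia make little class II, and microglia near amyloid plaques are known to raise it together with DAM genes such as Cst7, Lpl, Itgax and Apoe.

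The class II promoters are shown because part of the class II genes share a sequence arrangement that the selection rule did not use. The chain genes H2-Aa, H2-Ab1 and H2-Eb1, with H2-DMa, H2-DMb1, H2-DMb2, H2-Oa and H2-Ob, lie together on chromosome 17, and Cd74 and Ciita lie on other chromosomes. RefSeq promoters on GRCm38.p6, spanning 250 bases before to 50 after the start, were sought for 12 genes. These were Ciita and the class II genes other than Cd74, whose promoter was not searched. Promoters were matched for 8 of the 12 genes, as 9 promoters, and Ciita and H2-Ab1 were not among the 8. The searched letters, on both strands, were CTNGNAAC for the X box core and TGATTGG for the Y box. They were chosen with these promoters in view. The X box core occurred in 4321 of 32851 promoters (13.2%) and the Y box in 2568 (7.82%). An X box core followed by a Y box on the gene strand within 40 bases occurred in 17 promoters (0.0517%), and H2-Aa, H2-Eb1, H2-Ob and H2-DMb1 were among them. The other 4 of the 8 matched genes, H2-Oa, H2-DMa, H2-DMb2 and H2-Eb2, did not hold this pair in the window. The stretches below run 5′ to 3′ on the gene strand, with the X box core and then the Y box in capitals.
H2-Aa: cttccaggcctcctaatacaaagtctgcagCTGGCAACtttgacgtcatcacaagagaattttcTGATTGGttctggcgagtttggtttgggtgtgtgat
H2-Eb1: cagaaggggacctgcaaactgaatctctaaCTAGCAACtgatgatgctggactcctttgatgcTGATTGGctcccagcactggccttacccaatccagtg
H2-Ob: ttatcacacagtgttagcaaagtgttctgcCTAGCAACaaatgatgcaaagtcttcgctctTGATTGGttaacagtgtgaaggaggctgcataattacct
The H2-Aa stretch is chr17:34287838-34287937 on the minus strand, the H2-Eb1 stretch chr17:34305743-34305842 on the plus strand and the H2-Ob stretch chr17:34238785-34238884 on the plus strand. All 3 lie upstream of the annotated start of their gene and outside the other class II genes. Overlap with further annotated genes was not examined. The X box core began 84, 94 and 90 bases before the start in H2-Aa, H2-Eb1 and H2-Ob, and 26, 25 and 23 bases separated it from the Y box. A match of letters is a description and not a measured binding site.

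The members were chosen by their class II sum, so its values are a description. The sum had a long upper tail. Among members the median sum was 27 counts in VEH and 23 in LEM, the lowest was 10 and the highest were 764 and 657. Sums of 100 or more were reached by 66 VEH members (12.4%) and 72 LEM members (12.9%). Members with high DAM genes had higher medians (40 VEH, 30 LEM) than those with low DAM genes (20 VEH, 18 LEM). They were also deeper, with medians of 12277.5 and 13780 counts per cell against 7810 and 8200. As a share of all counts, the class II sum was lower with high DAM genes, at 0.557% and 0.466% against 0.622% and 0.627%. The minimum of 10 cut through a continuous range, since sums of 9 were found in 40 VEH and 48 LEM cells and sums of 10 in 32 and 42. Among all cells under the limits, 76.8% of VEH and 75.1% of LEM cells held no class II count, and among cells with high DAM genes 6.12% and 7.62% held none.

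**Figure D1:**
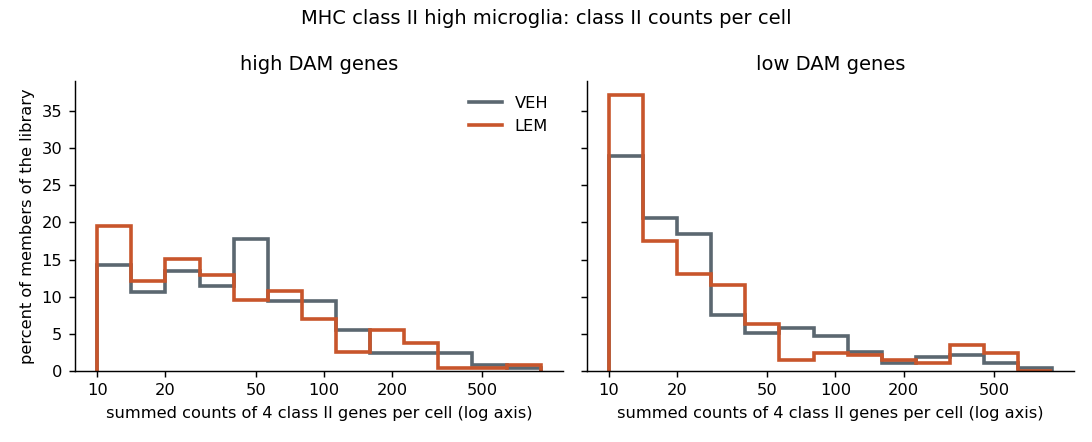
Percent of the members of each library, with high DAM genes on the left and low DAM genes on the right, by their summed counts of the 4 class II genes per cell (log axis, starting at the minimum of 10 counts). Members with low DAM genes crowd near the minimum, those with high DAM genes spread more evenly up to about 100 counts, and both have a thin tail past 500.

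Cd74 carried most of the sum, and the chain genes were detected in part of the members. Cd74 was detected in all 1088 members and gave 66.8% of the summed counts. H2-Ab1 was detected in 82.1% of members, H2-Aa in 68.1% and H2-Eb1 in 51.9%. All 4 genes were found in 481 members (44.2%), 48.4% of VEH and 40.2% of LEM members. Cd74 alone made the sum in 126 members (11.6%), 42 in VEH (7.91%) and 84 in LEM (15.1%). Members with high DAM genes held all 4 genes more often (51.9%) than members with low DAM genes (37.0%), at median depths of 12277.5 VEH and 13780 LEM against 7810 and 8200 counts per cell.

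H2-Aa and H2-Eb1 were concentrated in the members more than Cd74 and H2-Ab1 were. Over the cells under the BAM and Ttr limits, members held 95.8% of the H2-Aa counts in VEH and 95.2% in LEM, and 96.5% and 96.2% of the H2-Eb1 counts. They held 79.5% and 72.1% of the Cd74 counts and 72.3% and 69.9% of the H2-Ab1 counts. In other microglia Cd74 was detected in 17.7% of cells, H2-Ab1 in 6.53%, H2-Aa in 0.805% and H2-Eb1 in 0.413%, at a median depth of 5950.5 counts. The 192 droplets with at least 100 Ttr counts had a median depth of 8516.5. They held Cd74 in 19.3% of droplets, H2-Ab1 in 6.25%, H2-Aa in 1.56% and H2-Eb1 in 2.60% (interval 0.851 to 5.97). The shares in other microglia as a whole were near these or lower, and no expression was read from them. The Ttr droplets also held H2-DMb1 in 42.2% (41.9% of other microglia) and H2-Ob in 18.8% (19.7%). H2-DMa was found in 26.6% of them (29.3%) and H2-Oa in 26.6% (33.8%). Where the class II counts of these droplets came from was not tested, so the droplets are not taken as free of class II. Levels of H2-DM and H2-O genes in other microglia, given below, carry the same limit. Within other microglia, Cd74 was 298 CPM in VEH and 255 in LEM with high DAM genes and 44.9 and 51.4 with low DAM genes, so cells below the minimum were not all alike. The coactivator Ciita was detected in 53 members (4.87%), in 0.118% of other microglia and in 0 of 192 Ttr droplets, which allows a share of up to 1.90%.

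The members carried microglial identity genes, with exceptions that were more frequent at the top of the class II range. The summed level of 10 microglia markers was 25732 CPM (counts scaled to a common total per group) in VEH members and 26986 in LEM members, against 32118 and 32860 in other microglia. Fewer than 5 summed counts of P2ry12, Tmem119, Sall1, Siglech and Gpr34 were found in 36 members (3.31%, 18 in each library) and in 1.36% of other microglia. Of the 67 members with sums of at least 200, 13 were such cells. All 7 T cell markers and all 6 neutrophil markers were at 0 in the members. Of the B cell markers 5 of 7 were at 0, Cd79a and Ms4a1 among them, but the list summed to 118 CPM in VEH and 126 in LEM members against 111 in both libraries of other microglia. Most of this was Ighm, found in 62.0% of members, and 17.3% of members against 5.90% of other microglia held at least 3 counts of the list. Of the natural killer cell markers 3 of 5 were at 0, and the list summed to 2.60 and 1.79 CPM against 0.145 and 0.124. The dendritic cell list summed to 46.5 CPM in VEH and 45.1 in LEM members against 61.2 and 63.2 in other microglia, with Clec9a at 0. Batf3 gave most of that sum (38.4 CPM in members against 55.5), and Flt3 was also lower (2.25 against 3.81). Zbtb46 (3.29 against 2.63), Clec10a (0.693 against 0.0799), Cd209a, Xcr1 and Ccr7 were higher in members, so the lower sum does not hold for each marker. The monocyte list summed to 15.8 and 20.8 against 8.03 and 9.41, with Ly6c2 and Chil3 at 0. The BAM list, which holds the 5 genes that the rule kept below 5 summed counts, came to 61.4 and 52.4 against 12.6 in both libraries. Most of it was Folr2 (39.3 CPM in members against 10.3), and F13a1 was 5.63 against 0.297. Lyve1 was at 0, and every other BAM marker was higher in members. The choroid plexus list summed to 30.8 and 18.6 CPM against 5.89 and 4.89, with Kl and Clic6 at 0, and the astrocyte list to 9.82 and 11.6 against 2.75 and 3.25.

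Members were deeper than the rest of their libraries. The libraries held 116229678 counts (VEH) and 160752298 counts (LEM), with medians of 5971 and 6034 counts per cell, while the members had medians of 9912 and 10719. Cells with counts of both Xist and Y-linked genes, which in these pools of both sexes mark droplets with RNA of more than 1 cell, made up 9.98% of VEH and 12.6% of LEM members, against 5.13% and 7.01% of other microglia. Scrublet doublet calls covered 10.9% and 11.0% of members and 11.4% and 11.3% of other microglia. The part of depth and of shared droplets in the differences below was not tested, except where values without such cells are given.

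The peptide loaders H2-DMa and H2-DMb1, which the rule did not use, were highest in the cells with the highest class II sum, and H2-Ob did not follow it. In cells with low DAM genes the peptide loader H2-DMa was 68.3 CPM below the minimum of 10 counts and 125, 156, 211 and 452 CPM at sums of 10 to 19, 20 to 49, 50 to 99 and 100 or more. H2-DMb1 was 96.8, 128, 157, 189 and 498 CPM over the same bins. In cells with high DAM genes H2-DMa was 126 CPM below the minimum and 157, 209, 298 and 429 CPM above it. H2-Oa was 111, 124, 159, 191 and 250 CPM in the cells with high DAM genes, but in those with low DAM genes it was 77.8, 116, 124, 152 and 117 CPM. In that top bin it was 0 in the 15 cells under 5 microglial counts and 188 CPM in the 26 cells with at least 5 microglial counts and no Ccr2 count. H2-Ob was 68.8, 60.5, 78.6, 58.4 and 72.1 CPM with high DAM genes and 38.4, 52.0, 57.4, 73.2 and 41.9 with low. The top bins held 79 cells with high and 59 with low DAM genes.

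The top bins differed between cells with high and low DAM genes. With high DAM genes, Itgax, an integrin that marks DAM, was 126 CPM below the minimum and 509 CPM at sums of 100 or more, Cst7 was 1356 and 3325 CPM, and P2ry12, a homeostatic purinergic receptor, was 2298 and 2038 CPM. With low DAM genes, Itgax was 20.0 CPM below the minimum, 132 CPM at sums of 50 to 99 and 86.0 CPM at 100 or more. In that top bin Ciita was 90.4 CPM (5.63 in the bin below), H2-DMb2 185 (25.3), Ccr2, a chemokine receptor of monocytes and dendritic cells, 251 (2.81), and Apoe 12082 (4038). Of these 59 cells, 26 held a Ccr2 count, 25 a Ciita count, and 15 had fewer than 5 microglial counts. In the 44 others Ccr2 was still 197 CPM, Ciita 87.2 and H2-DMb2 142, and Itgax was 97.2 CPM. Itgax was 0 in the 15, and in the 26 cells with at least 5 microglial counts and no Ccr2 count it was 158 CPM.

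**Figure D2:**
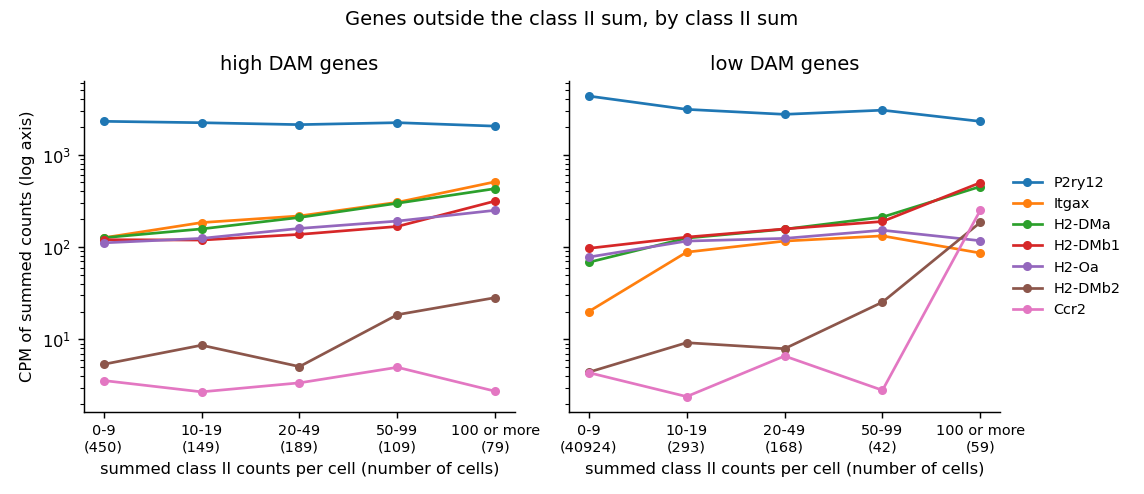
Level in CPM (log axis) of genes outside the class II sum, over bins of the summed class II counts per cell, for cells with high and low DAM genes, both libraries summed, with the number of cells under each bin. H2-DMa is higher in each higher bin in both panels, and Ccr2 and H2-DMb2 reach 251 and 185 CPM in the top bin of the cells with low DAM genes.

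Members with at least 2 Ccr2 counts were chosen after their values were seen. There were 25 (9 VEH, 16 LEM), 23 of them with low DAM genes and 23 with at least 100 class II counts. Their median class II sum was 412, Ciita was 129 CPM, found in 16 of them, H2-DMb2 253, Cybb, an NADPH oxidase subunit, 215 and the lysozyme gene Lyz2 4056. Of the 25, 7 had fewer than 5 microglial counts, 2 held both Xist and Y-linked counts and 0 were called doublets by Scrublet. The 90 other microglia with at least 2 Ccr2 counts had a median class II sum of 0, no Ciita count and 419 CPM of Lyz2. The labels do not separate infiltrating cells from microglia within the CD45lo gate, so the origin of these cells was not tested.

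Against other microglia with low DAM genes, members with low DAM genes had higher interferon response, DAM and chemokine genes. Genes were compared (tested, in the counts below) when 10% or more of the cells on at least 1 side held a count, and were called past a log2 ratio of 1 with the same direction in both libraries. By this rule 115 of 8021 genes were higher (1.43%) and 22 were lower (0.274%). The median over all tested genes was -0.13. Because the rule on class II also sorts cells, these ratios are descriptions of the chosen cells. The members' Cst7, Lpl and Spp1 were not matched to those of the other microglia, at 296 and 264 CPM against 28.1 and 30.2, so the members stood closer to the DAM minimum.

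The genes with the highest ratios included receptors and signalling genes. The minimum of 10% could be met by either side, so genes that are rare in other microglia entered through the members alone, and their place in this order follows in part from that. Cybb was 29.7 CPM in VEH and 42.6 in LEM members against 1.42 and 2.11 in other microglia, a mean log2 ratio of 4.36. Axl, a receptor for dying cells, was 67.2 and 77.4 CPM against 6.03 and 9.61 (log2 3.24). Baiap2l2, an actin regulator, was 110 and 70.3 CPM against 8.28 and 5.71 (3.68). Also among the highest were Ifi207 (3.60), the inhibitory receptor gene Lilrb4a (3.56), Etl4 (3.29), Actr3b (3.28), Fxyd5 (3.11), Lgi2 (2.93) and the cytokine receptor chain Il2rg (2.71). For Cybb, the members with at least 2 Ccr2 counts stood at 215 CPM and the 1026 members with no Ccr2 count at 23.5 CPM.

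Interferon response genes made the list with the highest median in this comparison. Of 21 tested genes 15 were higher by the stated rule and all 21 were above 0, with a median log2 ratio of 1.64 (1.86 VEH, 1.52 LEM). Only 10 genes of the list reached 10% of cells in either library of other microglia with low DAM genes. The rest entered through the members alone, so these counts and the median follow in part from the detection minimum. Ifitm3, a restriction factor, was 162 and 235 CPM in VEH and LEM members against 26.3 and 39.3 in other microglia (2.60). Irf7, a transcription factor of the response, was 55.9 and 59.6 CPM against 10.9 and 15.4 (2.16). These counts came from part of the members. At least 5 counts of 10 core interferon genes were held by 10.8% of VEH and 14.0% of LEM members with low DAM genes, against 2.02% and 2.81% of other microglia, and the top 5 members gave 53.5% and 41.2% of the members' core interferon counts. Among the 492 members under 5 such counts, the list's median was 0.55, with 3 of 13 tested genes higher, and 94 of 8002 genes were higher in all (1.17%). The core genes belong to the list, so leaving out cells by them lowers its median by construction. The 2 medians also cover different sets of tested genes, 21 and 13.

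Other DAM genes, which leave out Cst7, Lpl and Spp1, were also higher in these members. Of 20 tested genes 10 were higher and all 20 were above 0, with a median log2 ratio of 0.98. In other microglia with low DAM genes 17 genes of the list reached the detection minimum in either library, and the rest entered through the members alone. The lipid carrier gene Apoe was 4326 CPM in VEH and 5750 in LEM members against 1063 and 1771 (1.86). Itgax was 103 and 96.7 CPM against 14.8 and 23.8 (2.41), and the growth factor gene Csf1 was 128 and 118 against 24.1 and 24.8 (2.33). In the 187 members with no count of Cst7, Lpl or Spp1, fewer than 5 interferon counts and at least 5 microglial counts, 8 of 20 other DAM genes were higher, with a median of 0.62. In that subset 42 of 7974 genes (0.527%) were higher in all.

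Chemokine, class I and class II genes were higher in part, and no homeostatic gene was called lower. Of 15 chemokine and cytokine genes 8 were higher, with a median of 1.07. Of the chemokine and class I lists, 13 and 14 genes reached the detection minimum in either library of other microglia with low DAM genes. Ccl4 was 1482 and 1230 CPM against 442 and 420 (1.65), and Il1b was 23.6 and 38.7 against 4.81 and 5.24 (2.59). Of 17 class I genes 5 were higher, with a median of 0.75, the heavy chains H2-K1 (1.25) and H2-D1 (1.20) among them, and their light chain B2m had a ratio of 0.81. H2-DMa (196 and 150 CPM against 81.5 and 58.7, log2 1.31) and H2-DMb2 (20.5 and 32.0 against 5.27 and 3.79, log2 2.52) were the 2 of 5 other class II genes past the rule. A few cells carried much of the H2-DMb2 ratio, since all members with no Ccr2 count stood at 13.6 CPM and those with at least 2 at 253. Cd83 (1.28), which keeps class II at the surface, and Cd274 (1.54), which encodes PD-L1, were the 2 of 10 processing and costimulation genes that passed, while Cd86 had a ratio of -0.16. None of 25 homeostatic genes passed in the lower direction, but 24 were below 0, with a median of -0.42, and P2ry12 was 2955 and 2857 CPM against 4425 and 4235 (-0.58). The lower genes past the rule were led by Gm31243 (-1.48), Sema4b (-1.45), Slco4a1 (-1.38), Gpr165 (-1.33) and Bank1, a signalling adaptor, which was 55.0 and 68.7 CPM against 154 and 156 (-1.33).

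Fewer genes of the remaining lists passed the rule. Among lysosomal genes 1 of 33 was higher, with a median of 0.24, and among interferon-gamma linked genes 2 of 11, with a median of 0.42. All 36 ribosomal protein genes were above 0, with a median of 0.50 and none past the rule. Immediate early genes had a median of -0.26, with 1 of 16 higher. Folr2, the BAM marker common enough to be compared, was higher, at 24.5 and 24.1 CPM against 9.41 and 9.97 (1.32). None of 10 class II regulators passed the rule, and their median was -0.14. Rfx5, which binds the X box, had a ratio of -0.04. Ciita was too rare to be tested, at 10.9 and 11.8 CPM in members and 0.139 and 0.234 in other microglia.

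Among cells with high DAM genes, members and other microglia differed in few genes. By the same rule 11 of 8780 genes were higher (0.125%) and 18 were lower (0.205%), with a median over all genes of -0.10. With a median-of-ratios scaling in place of CPM, 15 genes were higher and 10 lower, so that the share of higher genes was 60.0% instead of 37.9%. Itgax was 277 CPM in VEH and 271 in LEM members against 125 and 127 in other microglia (log2 1.12). H2-DMb2 was 13.5 and 11.9 against 5.39 and 5.36 (1.24), and H2-DMa was 288 and 216 against 137 and 120 (0.96). Ctnna3 was 113 and 62.3 against 64.2 and 4.41 (2.32), a difference that rested mainly on the LEM library, at 3.82 there and 0.82 in VEH.

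Lower in members with high DAM genes were Lgals3, a galectin of activated microglia, and Lilrb4a. Lgals3 was 11.6 CPM in VEH and 20.8 in LEM members against 50.1 and 70.0 (-1.93). Lilrb4a was 30.0 and 26.0 against 96.0 and 95.5 (-1.78). Both groups had passed the same minimum of Cst7, Lpl and Spp1, though the members' sums of these genes were higher, with medians of 28 and 29 counts against 18 and 17. Of 23 other DAM genes 1 was higher and 1 lower, with a median of 0.17. The interferon list had a median of 0.40 (0.66 VEH, 0.22 LEM), with 20 of 21 genes above 0 and Ifit2 (1.31) and Irf7 (1.03) past the rule. The class I median was 0.13, the homeostatic median -0.06 and the lysosomal median 0.05, with none of their genes past the rule.

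**Figure D3:**
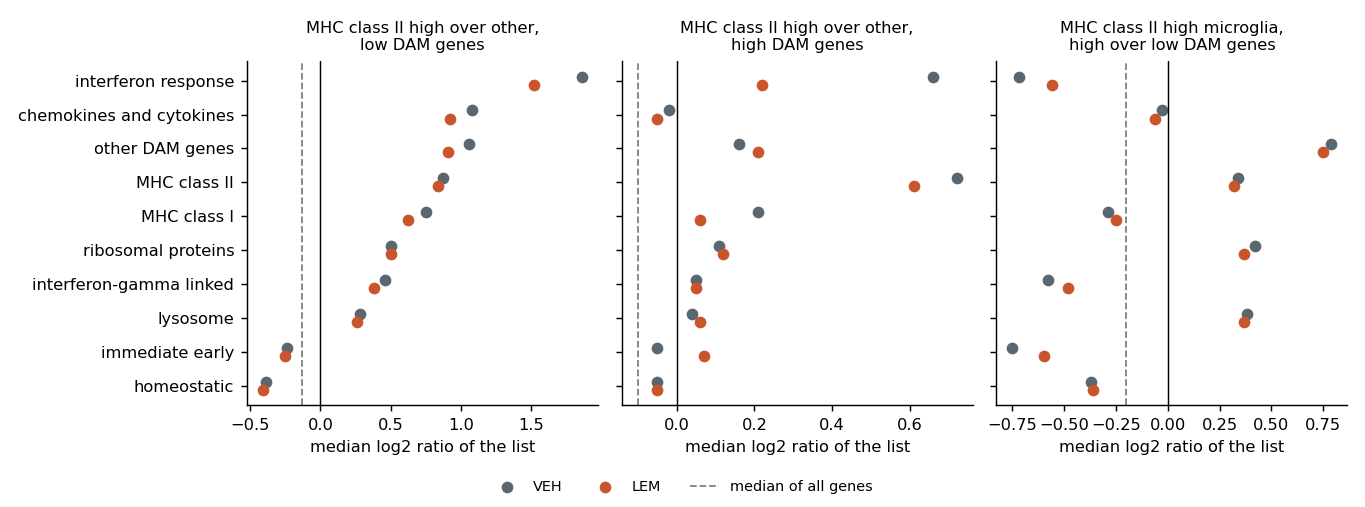
Median log2 ratio of each gene list, as 1 point for VEH and 1 for LEM, for members over other microglia with low DAM genes, the same with high DAM genes, and members with high over low DAM genes. The dashed line is the median of all tested genes, and the scales of the panels differ. The interferon response list is highest in the first panel, at 1.86 in VEH and 1.52 in LEM. In the panels of members over other microglia, genes could pass the detection minimum through the members alone.

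Members with high DAM genes were set against members with low DAM genes. Past the rule, 85 of 8662 genes were higher with high DAM genes (0.981%) and 122 were lower (1.41%), with a median over all genes of -0.20. Median-of-ratios scaling gave 146 higher and 56 lower, a share of higher genes of 72.3% instead of 41.1%. The split by Cst7, Lpl and Spp1 chose these groups, and the groups differed in depth. Of 22 other DAM genes 8 were higher, with a median of 0.76. The growth factor gene Igf1 was 67.6 CPM in VEH and 78.9 in LEM with high DAM genes against 11.8 and 7.50 with low (2.96), and the fatty acid binding gene Fabp5 was 116 and 71.2 against 8.73 and 27.2 (2.56). Ch25h, a cholesterol hydroxylase gene, was 39.6 and 38.5 against 9.61 and 5.53 (2.42). The heparanase gene Hpse had a ratio of 3.51.

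Interferon genes stood lower in members with high DAM genes, and chemokine and cytokine genes were divided. Of 21 interferon genes 5 were lower and none was higher, with a median of -0.75. The share of members with at least 5 core interferon counts was 10.2% in VEH and 14.7% in LEM with high and 10.8% and 14.0% with low DAM genes. This minimum was not scaled to depth, and members with high DAM genes were deeper (medians of 12277.5 and 13780 against 7810 and 8200 counts). Near-equal shares are therefore not equal rates. The level of the core interferon genes was 180 and 258 CPM with high and 518 and 448 with low DAM genes, where the top 5 cells held 53.5% and 41.2% of the counts. Of 17 chemokine and cytokine genes 3 were higher and 3 lower, with a median of -0.02. Tnf was 24.8 CPM in VEH and 26.0 in LEM against 74.7 and 123 in members with low DAM genes (-1.91), and the chemokine gene Ccl12 was 281 and 268 against 634 and 598 (-1.17). In the other direction, Ccl6 was 1290 and 952 against 474 and 219 (1.78). Also lower were Arhgap15 (-2.22), Ms4a6c (-2.01), the inhibitory receptor gene Pirb (-2.00) and Il2rg (-1.89). Immediate early genes had a median of -0.69, class II regulators of -0.57 and ribosomal protein genes of 0.39. The other class II genes had a median of 0.33, with H2-DMb2 at -1.01.

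Members made up a smaller share of the LEM library than of the VEH library. They were 2.90% of VEH cells under the limits (95% Clopper-Pearson interval 2.66 to 3.16) and 2.30% of LEM cells (2.12 to 2.50), a log2 ratio of -0.33 (-0.51 to -0.16). With a minimum of 5 class II counts in place of 10, the ratio was -0.13, and -0.08 for members with low DAM genes. In male cells, called from Y-linked counts without Xist, the share was 3.14% (282 of 8991) in VEH and 2.18% (243 of 11134) in LEM, a ratio of -0.52 (-0.78 to -0.27). In female cells it was 2.22% (126 of 5670) and 2.15% (180 of 8376), a ratio of -0.05 (-0.38 to 0.29). The sex of the mice behind each cell is known only from these genes, and how many mice of each sex gave members was not tested.

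Among cells with high DAM genes, the share that were members was 59.8% in VEH (254 of 425, interval 54.9 to 64.5) and 49.4% in LEM (272 of 551, 45.1 to 53.6). The ratio was -0.28 (-0.53 to -0.02), and both sexes were lower in LEM, at 53.1% and 42.7% in female and 64.0% and 54.8% in male cells. Taken by sex, the intervals of this ratio spanned 0 (female -0.78 to 0.16, male -0.60 to 0.15). The share of cells with high DAM genes differed less over all cells, at 2.32% in VEH and 2.28% in LEM. By sex it went opposite ways, with a ratio of 0.22 for female cells (-0.10 to 0.54) and -0.32 for male cells (-0.60 to -0.03). Among cells with low DAM genes, 1.55% and 1.21% were members, with 1.05% in both libraries in female cells and 1.67% and 1.17% in male cells. The members with high DAM genes were 47.8% of all members in VEH and 48.8% in LEM.

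The share of members was lower in LEM also at equal depth, though not in female cells with low DAM genes. When each cell was thinned to 2000 counts, with minimums lowered to 4 class II and 4 DAM counts, members were 2.49% of VEH and 1.80% of LEM cells (log2 -0.47, interval -0.67 to -0.27). Thinning left out the 7.10% of VEH and 4.98% of LEM cells that were shallower. Of cells with high DAM genes after thinning, 48.4% and 39.6% were members (log2 -0.29, interval -0.64 to 0.07), and of those with low DAM genes 1.71% and 1.23%. In female cells with low DAM genes the thinned share was 1.07% in both libraries.

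**Figure D4:**
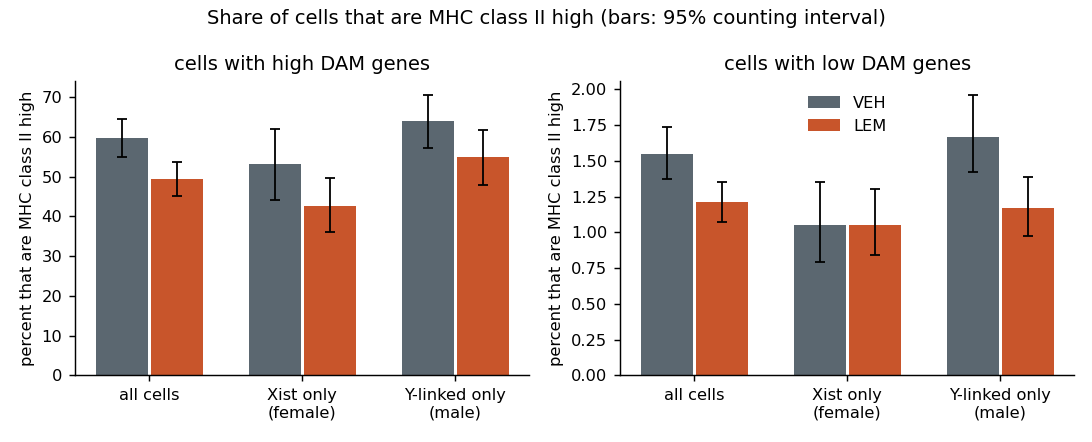
Share of members in VEH and LEM, as a percent of cells with high DAM genes and of cells with low DAM genes, for all, female and male cells. Bars are the shares and error bars the 95% Clopper-Pearson intervals, which cover counting error only. Among cells with high DAM genes the share is 59.8% in VEH and 49.4% in LEM.

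The level of class II transcripts over all microglia was lower in LEM. The 4 genes summed to 335 CPM in VEH and 272 CPM in LEM, a log2 ratio of -0.30 (-0.32 to -0.28). Cd74 was 228 and 192 CPM (-0.25), H2-Aa 38.1 and 28.1 (-0.44), H2-Ab1 47.1 and 35.2 (-0.42) and H2-Eb1 21.8 and 17.1 (-0.35). Within members with high DAM genes the sum was 5566 and 4655 CPM (-0.26), with H2-Aa at 739 and 554 (-0.42) and H2-Eb1 at 329 and 241 (-0.45). Within members with low DAM genes it was 6215 and 6266 CPM (0.01). Other class II genes did not all share the direction, since H2-DMa was 288 and 216 CPM with high DAM genes (-0.42) and 196 and 150 with low (-0.39), while H2-Oa was 155 and 185 (0.25) and 112 and 130 (0.21). The lower H2-DMa held in male cells (-0.78 and -0.59), and the ratio was 0.50 and 0.20 in female cells. In other microglia with low DAM genes it was 1.05 in female and -1.48 in male cells.

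The sexes differed in the direction of these levels within the members. In members with low DAM genes the sum was 7851 CPM in VEH and 5748 in LEM in female cells (-0.45, interval -0.51 to -0.39) and 5609 and 6681 in male cells (0.25, interval 0.20 to 0.30). A few cells carried much of this. The top 5 cells held 59.0% of the female VEH counts, from 58 cells, and 41.8% of the female LEM counts, from 86 cells. Without members of fewer than 5 microglial counts, the ratios were -0.05 in female and -0.07 in male cells. In members with high DAM genes the sum had ratios of 0.02 in female and -0.17 in male cells, and Cd74 of -0.09 and -0.05. H2-Eb1 was 131 and 228 CPM in female cells (0.80) and 399 and 260 in male cells (-0.62), with the top 5 of 68 VEH and 94 LEM female cells holding 56.8% and 46.2% of its counts.

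**Figure D5:**
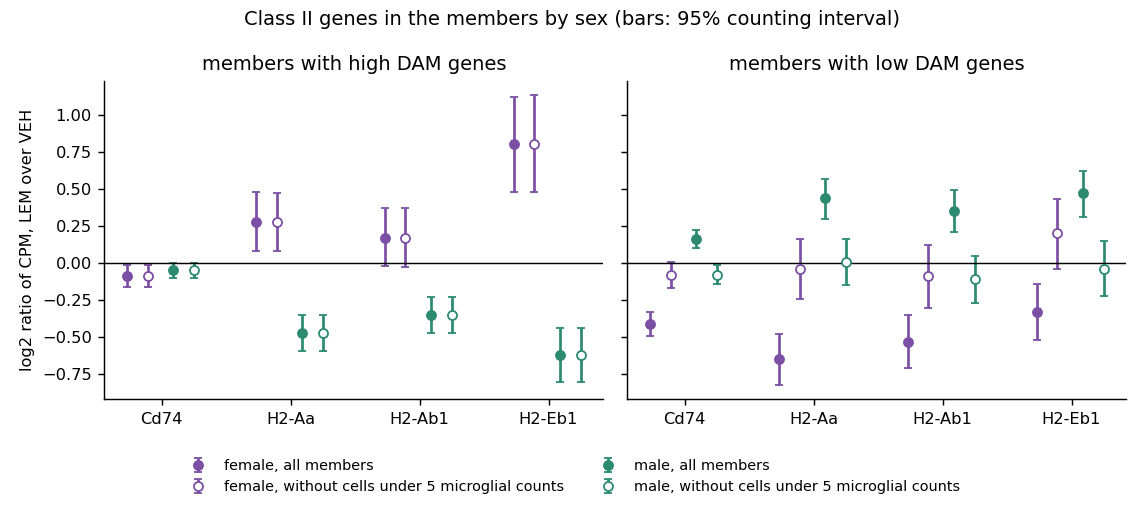
Log2 ratio of LEM over VEH of Cd74, H2-Aa, H2-Ab1 and H2-Eb1 in members, for female and male cells with high and low DAM genes, with 95% counting intervals. Filled points are all members and open points leave out cells under 5 microglial counts. In members with low DAM genes the filled points of H2-Aa are at -0.65 in female and 0.44 in male cells, and the open points at -0.04 and 0.01.

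Beyond class II, members of the LEM and VEH libraries differed in genes that also differed in other microglia. Past a log2 ratio of 0.58, 223 of 8841 genes were higher (2.52%) and 251 lower (2.84%) in LEM members with high DAM genes. In those with low DAM genes, 232 of 8331 were higher (2.78%) and 228 lower (2.74%). Qpct, an enzyme that makes pyroglutamate, was 16.1 CPM in VEH and 71.2 in LEM members with high DAM genes (2.14), at 3.78 in male and 0.27 in female cells.

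Lower in LEM members were Pianp and Cfap77. Pianp was 123 and 34.1 CPM with high DAM genes (-1.85) and 65.9 and 8.68 with low (-2.92), and its ratios in other microglia were -1.97 and -2.07. Cfap77, a cilia gene, was 1290 and 403 CPM (-1.68) and 692 and 230 (-1.59), and its ratios in other microglia were -2.02 and -1.85. Tubb2b, which shares sequence with the near-identical Tubb2a and is therefore uncertain, was 30.1 and 9.08 CPM in members with low DAM genes (-1.73). Adcy8, an adenylyl cyclase gene, was 6.55 and 22.9 CPM there (1.81), at 2.75 in male and 0.51 in female cells. In a comparison of 1 pool with 1 pool, treatment and the mice in each pool cannot be told apart.

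Interferon genes were mostly higher in LEM members with high DAM genes, but by sex the direction differed. Of 21 genes 18 were above 0 and 4 passed 0.58, with a median of 0.33, at 0.68 in female and -0.10 in male cells. Isg15, a ubiquitin-like protein gene, was 25.4 and 60.1 CPM (1.24) and Ifitm3 was 107 and 173 (0.69). Isg20, which is not in the list but was among the largest ratios, was 4.51 and 18.0 CPM. In members with low DAM genes the median was 0.07, with 14 of 21 above 0 and 1 past 0.58. In other microglia with high DAM genes it was 0.81, with 14 of 19 past 0.58, and at 1.10 in female and -0.25 in male cells. There all 19 were above 0, as were 56.9% of all tested genes. Ly6e, an interferon-inducible surface gene, was 662 and 1316 CPM in members with high DAM genes (0.99) and 694 and 1326 with low (0.93), and its ratios in other microglia were 0.93 and 0.98.

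The immediate early genes had small ratios below 0 in LEM members. None of 16 tested genes was above 0 in members with high DAM genes (median -0.25) or low DAM genes (median -0.31), while 49.8% and 50.6% of all tested genes were. Past a ratio of 0.58 were 1 and 2 of the 16, and by sex the medians were -0.01 in female and -0.28 in male cells with high and -0.21 and -0.31 with low DAM genes. Egr1 was 701 and 607 CPM with high DAM genes (-0.21) and 1336 and 954 with low (-0.49). The medians in other microglia were -0.24 and -0.16. The other DAM genes had medians of 0.05 and 0.10 and the homeostatic genes of 0.00 and -0.04. Itgax was 277 and 271 CPM with high DAM genes (-0.03), and Apoe was 7153 and 7395 (0.05) with high and 4326 and 5750 (0.41) with low DAM genes. The female and male ratios of Apoe were -0.49 and 0.39 with high and -0.09 and 0.51 with low DAM genes. The class II regulators had medians of -0.17 and -0.13, with none past 0.58.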

How the data were processed

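Single cells sorted as microglia from vehicle and lemborexant mice were sequenced with a 10x 5′ kit, 1 library of 5 pooled mice per treatment. According to the methods and the submitters' processing notes, the authors aligned reads to mm10 with Cell Ranger 8.0.0, removed ambient RNA with SoupX and filtered cells by genes, total counts and mitochondrial share. The deposited table held whole-number UMI counts per gene and cell, and whether it precedes the ambient step is not given in the sources used here. Cell names carried numbers in place of barcodes, so barcodes shared between libraries were not counted here.

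Counts were summed over the cells of a group and scaled to CPM with pandas 2.3.3 and numpy 2.4.6. Log2 ratios have exact conditional intervals and shares Clopper-Pearson intervals (95%, scipy 1.17.1). Genes needed a count in 10% of cells of either side. Genes past a log2 ratio of 0.58 (treatment) or 1 in the same direction in both libraries (members against others, high against low) were counted. Named genes came from the 10 largest and 10 smallest ratios of the same sign in both sexes (and libraries), all class II genes and the 4 highest genes of each other list. Csf1, Il1b, Ccl12, Irf7, Isg15, Egr1, Itgax, Ccl5, Il12b and the genes given for cells with Ccr2 or few microglial counts were chosen after their values were seen. Scrublet (scanpy 1.11.5) ran per library, and since its automatic threshold called 0 VEH cells, the highest scores up to an expected rate of 0.1, with all cells tied at the last score, were called (11.36% of VEH and 11.20% of LEM cells). The ratio functions were tested on simulated data. Members and gene lists were chosen with earlier results of these data known, and some genes are not reported here.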

Additional observations from a re-analysis of the deposited data

Results flagged for a closer look

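Several class II levels of the members went in opposite directions in female and male cells from VEH to LEM. In members with low DAM genes the log2 ratio of LEM over VEH in female and male cells was -0.41 and 0.16 for Cd74, -0.65 and 0.44 for H2-Aa, -0.53 and 0.35 for H2-Ab1, -0.33 and 0.47 for H2-Eb1 and -0.45 and 0.25 for the sum of the 4 genes. In members with high DAM genes it was 0.28 and -0.47 for H2-Aa and 0.80 and -0.62 for H2-Eb1, while Cd74 was at -0.09 and -0.05. The difference between the sexes was not tested, since each treatment had 1 pool.

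Without members under 5 microglial counts, the female and male ratios in members with low DAM genes were -0.08 and -0.08 for Cd74, -0.04 and 0.01 for H2-Aa, -0.09 and -0.11 for H2-Ab1 and 0.20 and -0.04 for H2-Eb1. In members with high DAM genes they stayed at 0.28 and -0.47 for H2-Aa and at 0.80 and -0.62 for H2-Eb1. The top 5 female members with high DAM genes held 54.1% of the H2-Aa counts in VEH and 40.4% in LEM.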

How the results depend on the processing

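No paired analysis was possible because each treatment had 1 library. For the same reason no library could be left out of a comparison of treatments. The log2 ratio of LEM over VEH of the share of members (-0.33) was -0.13 with at least 5 class II counts, -0.05 in female and -0.52 in male cells. For members with low DAM genes (-0.36) it was -0.08 with at least 5 class II counts and turned to 0.01 in female cells. For members with high DAM genes (-0.30, interval -0.56 to -0.05) it was -0.10 in female cells (-0.56 to 0.38) and -0.54 in male cells (-0.91 to -0.17). The sexes thus differed here too, though every alternative run stayed within the wide counting interval of the reported ratio. The share of members that had high DAM genes also stayed within its interval under every alternative run. So did the share of cells with high DAM genes that were members. The class II level over all microglia (-0.30) was -0.26 without Scrublet doublets and with the sexes weighted equally, -0.54 without cells of at least 3 other leukocyte marker counts, -0.35 when Ighm and Batf3 were not counted among these markers, -0.13 in female and -0.36 in male cells. That filter removed 342 members (31.4%), and 30 (2.76%) when Ighm and Batf3 were not counted.

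Counts of genes past the fold depended on the detection minimum and on the number of cells. For LEM over VEH with high DAM genes the 474 genes became 951 at 5% of cells, 2365 with no minimum, 888 without cells of other leukocyte markers, 1983 in female and 1218 in male cells. With low DAM genes the 460 became 926, 2318, 694, 2133 and 1197. For members over other microglia with high DAM genes the 29 became 112 at 5%, 490 with no minimum, 139 in VEH alone, 66 in LEM alone, 57 without cells of other leukocyte markers, 220 in female and 141 in male cells. With low DAM genes the 137 became 244 at 5%, 5411 with no minimum and 263 in female cells. For members with high over low DAM genes the 207 became 377 at 5%, 914 with no minimum, 513 in female and 342 in male cells. Of the values of the genes with the largest and smallest ratios, which were picked for the same sign in both sexes, 5 of 400 for LEM over VEH, 37 of 478 for members over other microglia and 0 of 240 for high over low DAM genes moved, and none reversed. Class II and list genes outside that choice could turn by sex, with H2-DMa, H2-Aa, Ifitm3 and Apoe among them. Of 392 list medians 37 moved. The alternatives without cells under 5 microglial counts, without cells that held Xist and Y-linked counts, and without Ighm and Batf3 among the markers were chosen after seeing the data, as were the other leukocyte filter on the class II level and all alternatives for the share of cells with high DAM genes that were members. A gene at 3 counts or fewer per library was not separable from 0 at this depth.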

Other observations

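Some cytokine transcripts of the members came from very few cells. Ccl5, a T cell attracting chemokine, had 80 counts in VEH and 604 in LEM members. It was found in 3.95% and 5.21% of members and in 0.366% and 1.12% of other microglia, and the top 5 cells held 68.8% and 81.0% of the members' counts. Il12b, a subunit of interleukin 12 and 23, had 20 counts in 1 VEH member and 47 counts in 3 LEM members. With so few cells no difference between the libraries was read from either gene.

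The 36 members with fewer than 5 microglial counts had more class II, Apoe and Lyz2 transcript than the remaining members. Cd74 was 26551 CPM in them and 3479 CPM in the others, Apoe 20992 and 6208, and Lyz2 4594 and 1618. Ccr2 was 296 and 10.4 CPM, with counts in 8 of the 36 cells.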
